A study of Mus musculus with 2 samples.

Results

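The carbonic anhydrases described here are 10 genes, Car1, Car2, Car3, Car4, Car5b, Car8, Car9, Car12, Car13 and Car14, taken as every non-control probe of the array that carries one of these names. They were read by 14 of the 41174 non-control probes, since Car3, Car5b, Car8 and Car12 had 2 probes each and the other 6 genes had 1. The cells were GIF-5, a line of gastric epithelium from the mouse with the genotype Runx3-/-p53-/-, grown in serum-containing medium. A suspension of the 1 line was stained with an antibody against CD133 and sorted into CD133-positive and CD133-negative cells, so both fractions lack Runx3 and p53, and the sort itself is the only labelled difference between them. There were 2 arrays, named biological replicates in the labels, and each held CD133-positive RNA in Cy3 (green) and CD133-negative RNA in Cy5 (red), so dye and fraction cannot be told apart. The labels do not say whether the replicates came from separate cultures and sorts. The p-values rest on the spread between these 2 arrays, which may be technical. For each gene, its own spread was combined with that of all tested genes.

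Carbonic anhydrases are zinc enzymes that interconvert carbon dioxide and water with bicarbonate and a proton. Family members differ in place: cytosolic (Car1, Car2, Car3, Car13), mitochondrial (Car5b), anchored in or on the plasma membrane with the catalytic domain outside (Car4, Car9, Car12, Car14), or without enzyme activity (Car8). In the stomach, CAR2 supplies protons for acid secretion in parietal cells and bicarbonate for the alkaline mucus of surface cells, and CAR9 lies in the basolateral membrane of the gastric epithelium. Prom1 encodes CD133, a surface protein on which stem-like cells are sorted in several tissues.

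The array detected some of these genes and not others. Of the 10 genes, 7 could be tested (Car1, Car2, Car5b, Car9, Car12, Car13 and Car14), which required a probe well above background in 1 dye on both arrays. Car14 met this through Cy5 alone and was well above background in Cy3 on array 1 only. Car3, Car4 and Car8 could not be tested. The brightest of the family's spots by far were those of Car2 and Car13. The others that were tested stood between 1.18 and 4.32 times their local background, so their ratios rest on little signal, and the number of arrays limits the precision further. The bright Car13 and Car2 probes, in contrast, were between 22.3 and 94.1 times local background.

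**Figure D1:**
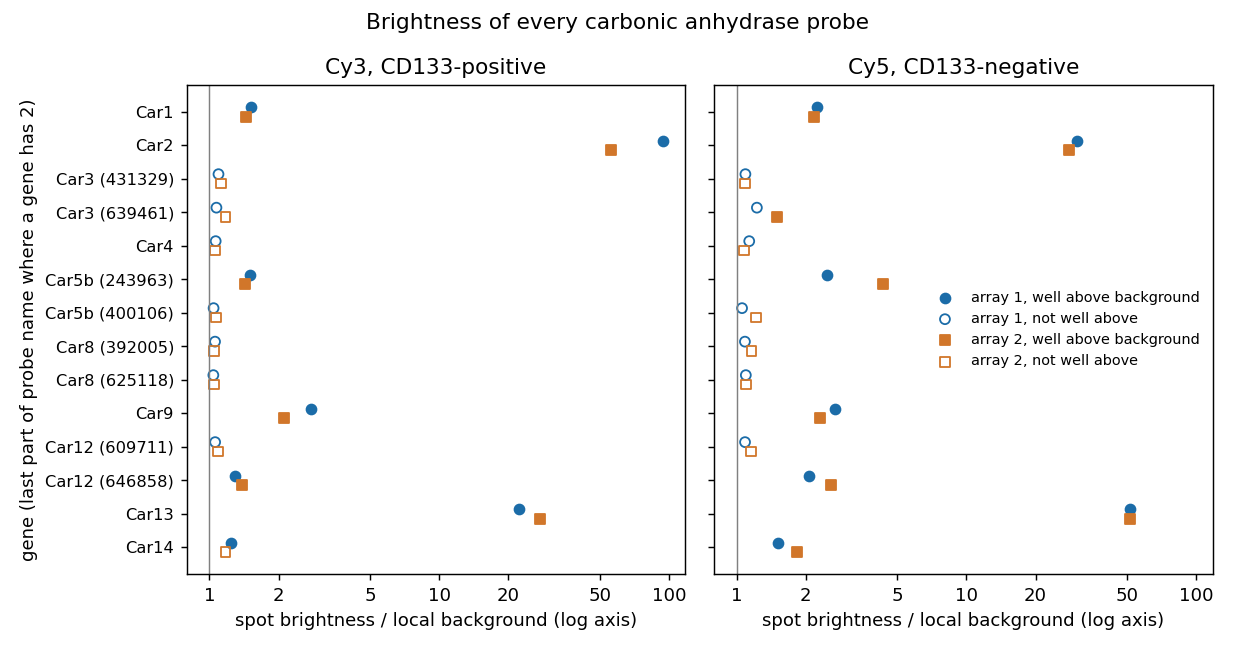
Spot brightness divided by local background (log axis) for all 14 probes of the 10 genes, Cy3 (CD133-positive) on the left and Cy5 (CD133-negative) on the right, with 1 point per array and open points where the scanner program did not call the spot well above background. Car2 and Car13 stand at 22.3 times background or more in every channel, Car4 and Car8 lie at 1.16 or less, Car3 is higher with 1 probe in Cy5, and brightness of different probes or dyes is not a comparison of levels.

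Car2, which encodes the fast cytosolic enzyme, was the gene of the family that rose in CD133-positive cells. Its spot read 4707 on array 1 and 2740 on array 2 in CD133-positive cells, over local backgrounds of 50 and 49. In CD133-negative cells it read 1542 and 1427, over a background of 51 on both. The CD133-negative readings were thus close to each other, and the arrays differed mostly in the CD133-positive reading. After background correction and loess normalisation, which removes a difference between the dyes that varies with intensity, the log2 ratio of CD133-positive over CD133-negative cells was 3.03 on array 1 and 2.35 on array 2. The mean was 2.69 ± 0.22 (moderated SE, n = 2), a 6.47-fold difference with a 95% interval of 4.22 to 9.93 (limma adjusted p = 0.0317). Car2 ranked 98 of 15245 tested genes by mean ratio. The call was lost when dim probes were not filtered out (adjusted p = 0.108) and without moderation of the variance (adjusted p = 0.515), while the direction held on each array and under every processing tried.

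Car2 was 1 called gene among 7 tested, against 1.69% of all 15245 tested genes called in either direction and 1.41% called higher, and with 1 gene this is no result about the family as a whole. None of the 7 was called lower, as 0.276% of all genes were, and at an unadjusted limma p under 0.05 there were 2 higher (Car2 and Car9, where 11.9% of all genes were higher) and 0 lower (16% of all genes). It was also the only one of the 7 at least 2-fold higher on both arrays, and none was 2-fold lower on both, where 2.5% and 2.11% of all genes were. The median log2 ratio of the 7 tested genes was 0.02, with 0.07 on array 1 and -0.04 on array 2, beside -0.03 over all genes. By sign, 3 of them were above 0 on both arrays (32.6% of all genes) and 1 below 0 on both (39.7% of all genes). The other 3 had opposite signs on the arrays, as 27.8% of all genes did.

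**Figure D2:**
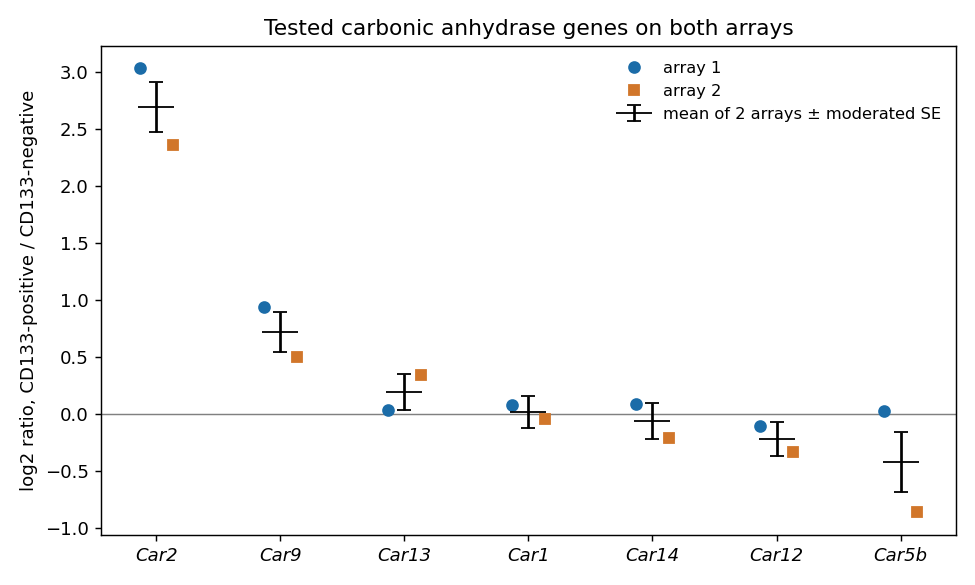
The log2 ratio of CD133-positive over CD133-negative cells for the 7 tested carbonic anhydrase genes, with array 1 as circles, array 2 as squares, and the mean of both arrays ± moderated SE as bars. Car2 stands at 3.03 and 2.35, Car9 at 0.94 and 0.50, and the other 5 lie within 0.87 of 0 on either array.

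Of the other cytosolic enzymes, Car13 and Car1 did not pass the test and Car3 could not be tested. Car2 lies on chromosome 3 beside Car13, Car1 and Car3, and these 4 genes follow each other with no other protein-coding gene between them in the order Car13, Car1, Car3, Car2 (RefSeq, GRCm38.p6, used for gene order). Car13, a widely expressed cytosolic enzyme and the only bright neighbour, read 1069 and 1319 in CD133-positive and 2783 and 2785 in CD133-negative cells, which after normalisation gave log2 ratios of 0.03 and 0.34. Its mean was 0.19 ± 0.16 (limma adjusted p = 0.508), and the 95% interval of the fold, 0.84 to 1.54, lies wholly below that of Car2. On array 1 the log2 ratio of Car2 was 3.03 beside 0.03 for Car13, and on array 2 it was 2.35 beside 0.34.

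Car1, the abundant enzyme of red cells and colon epithelium, was dim, with 72.7 and 69.4 in CD133-positive and 118 and 107 in CD133-negative cells over backgrounds of 48 to 53. Its log2 ratios were 0.07 and -0.04, so the arrays fell on either side of 0, and its mean was 0.02 ± 0.14 (limma adjusted p = 0.959) with a fold interval of 0.77 to 1.33. Car3, the enzyme of skeletal muscle and fat cells, was not well above background with either probe, apart from 1 probe in CD133-negative cells on array 2 alone. That probe read 73.3 over a background of 49 there, and 61.2 over 50 on array 1.

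Of the enzymes that face the outside of the cell, Car9 had the highest ratio. Car9, a transmembrane enzyme and a well-known target of hypoxia-inducible factor, read 134 and 97.2 in CD133-positive cells over backgrounds of 48.5 and 46. In CD133-negative cells it read 129 and 111 over a background of 48 on both arrays. All 4 readings were well above background, and the log2 ratio was positive on both arrays, 0.94 on array 1 and 0.50 on array 2. The mean of 0.72 ± 0.18, a 1.64-fold difference with an interval of 1.17 to 2.32, had an unadjusted limma p of 0.0163 and did not pass over all genes (adjusted p = 0.112). The size differed between settings. It was lowest with median centring over all non-control probes, at 0.37 (limma adjusted p = 0.111). There it lay 1.11 above the median of all tested genes. The mean log2 ratio was 1.00 with an offset of 16 in place of 50 and 0.77 with no background correction (limma adjusted p = 0.0811 and 0.10). It was 1.39 from the deposited processed signals and 1.55 from the value table, in which background, spatial trend and dye balance were all handled differently (limma adjusted p = 0.0720 and 0.0748).

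Car12, a transmembrane enzyme of secretory epithelia that is also raised by hypoxia, had the opposite sign. Its brighter probe read 62.3 and 65 in CD133-positive cells over backgrounds of 48 and 47, and 110 and 134 in CD133-negative cells over 53 and 52. The log2 ratios were -0.11 and -0.34, below 0 on both arrays, with a mean of -0.22 ± 0.15 (limma adjusted p = 0.399) and a fold interval of 0.64 to 1.14. The mean was -0.37 with an offset of 16 and -0.27 with no background correction (limma adjusted p = 0.292 and 0.324), and -0.94 from the processed signals and -0.78 from the value table (adjusted p = 0.108 and 0.163). The other Car12 probe was not well above background in any channel, so it gave no second reading of the gene.

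Car14, a transmembrane enzyme of epithelia and muscle, read 59.4 and 57.6 in CD133-positive and 78.3 and 85.8 in CD133-negative cells. Its log2 ratios of 0.08 and -0.21 differed in sign, and the mean was -0.07 ± 0.15 (limma adjusted p = 0.839) with a fold interval of 0.71 to 1.29. Car4, which is held on the outer surface by a lipid anchor, was not detectable above background: it read 51.6 and 53.1 in Cy3 and 56.7 and 56.2 in Cy5, within 1.13 times local background or less. The promoters of Car9 and Car12 are shown because both genes respond to hypoxia-inducible factor. Neither gene passed over all genes here, and whether promoter letters and these ratios are related was not tested. RefSeq windows (GRCm38.p6) from 250 bases before an annotated start to 50 bases from it were found for 5 of the 10 genes, Car4, Car5b, Car9, Car12 and Car14. They were searched on both strands for the core letters of the hypoxia response element, printed in capitals. One form of the core is ACGTG, which reads as CACGT on the other strand. The other form is GCGTG, which reads as CACGC there. The Car9 window is chr4:43506776-43507075 on the plus strand and the Car12 window chr9:66713436-66713735 on the plus strand.
Car9: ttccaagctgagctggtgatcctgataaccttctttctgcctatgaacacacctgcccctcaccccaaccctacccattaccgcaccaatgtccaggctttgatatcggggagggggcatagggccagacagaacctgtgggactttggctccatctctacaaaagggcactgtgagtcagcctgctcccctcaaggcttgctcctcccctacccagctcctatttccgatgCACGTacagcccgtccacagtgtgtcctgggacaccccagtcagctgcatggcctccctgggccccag
Car12: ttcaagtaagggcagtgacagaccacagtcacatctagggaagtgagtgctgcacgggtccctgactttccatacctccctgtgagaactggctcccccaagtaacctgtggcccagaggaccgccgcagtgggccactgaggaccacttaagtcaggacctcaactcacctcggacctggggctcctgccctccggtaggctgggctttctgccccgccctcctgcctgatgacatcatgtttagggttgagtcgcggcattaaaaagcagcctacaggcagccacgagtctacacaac
Car9 held 1 match, the reverse form of ACGTG shortly before the start, and Car12 held none. Among 32851 windows of 300 bases, 19.6% held the first form, 32.4% the second and 43.8% either, on any strand. Car4 and Car14 held 1 match each to the first form, and Car5b held 5, all to the second. A match describes the letters of a window and not binding, and none of these data measured binding.

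**Figure D3:**
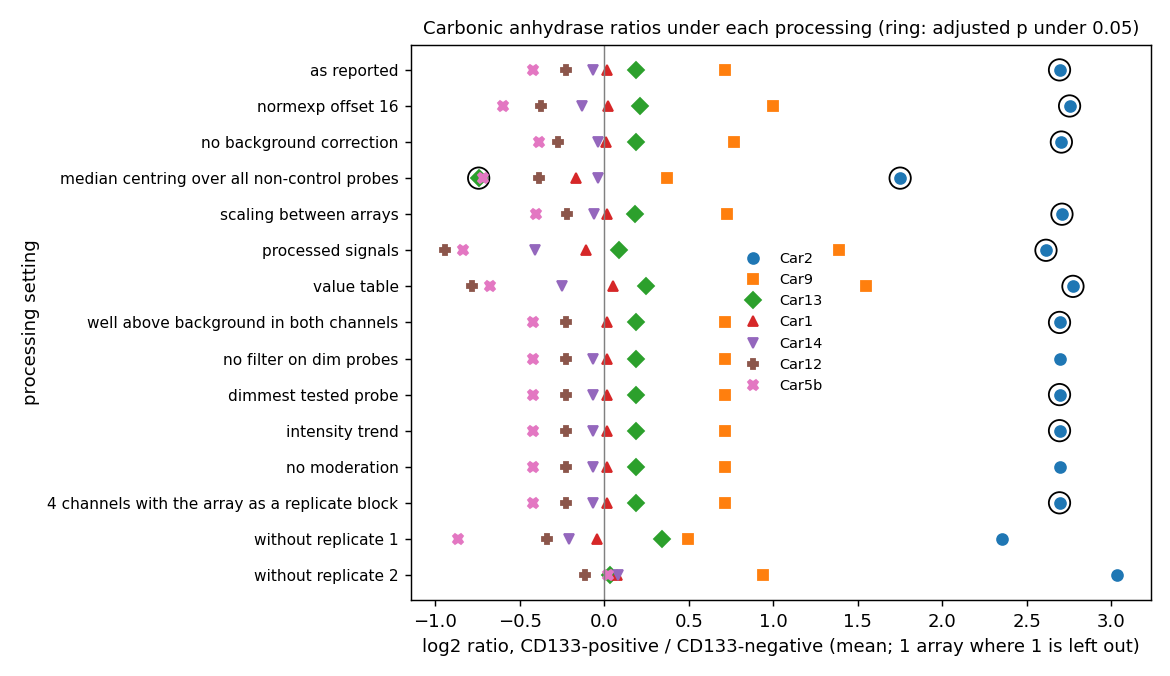
Mean log2 ratio of the 7 tested genes under each processing setting, with a ring where the adjusted p was under 0.05, and the value of 1 array alone (no test) where a replicate was left out. Car2 stays between 1.75 and 3.03, Car9 moves from 0.37 to 1.55, and the ring near -0.74 under median centring belongs to Car13, which there lies at the median of all tested genes.

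Car5b, the mitochondrial form, which supplies bicarbonate to biosynthetic enzymes of the matrix, differed between the arrays. In CD133-positive cells its brighter probe read 74.2 and 73.9. In CD133-negative cells it read 120 on array 1 and 235 on array 2, so the arrays parted in the CD133-negative reading. The log2 ratios were 0.02 and -0.87, with a mean of -0.42 ± 0.26 (limma adjusted p = 0.377), and the fold interval of 0.45 to 1.25 includes 1. The SD between the arrays was 0.63, against a median of 0.18 over all tested genes, and the lower mean rests on array 2. A second Car5b probe was not well above background in any channel. Car8, which lacks the zinc-binding residues needed for catalysis and is best known from Purkinje neurons, was not well above background with either probe, at 1.16 times local background or less.

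The rest of the family on the array was Car5a, Car6, Car7, Car10, Car11 and Car15, of which 3 could be tested and none passed in limma. At an unadjusted limma p under 0.05, 1 was higher and 0 lower (11.9% and 16% of all genes). Car7, a cytosolic enzyme known mainly from neurons, read 336 and 250.3 in CD133-positive and 343 and 307 in CD133-negative cells. Its log2 ratios were 1.21 and 0.77, above 0 on both arrays, with a mean of 0.99 ± 0.18, a 1.99-fold difference with an interval of 1.41 to 2.80 (limma adjusted p = 0.0816). With the 4 channels fitted as separate samples it passed (limma adjusted p = 0.0486), in a fit that called 1030 of all genes in place of 257. Car11, an acatalytic relative, had log2 ratios of -0.07 and -0.88 and a mean of -0.47 ± 0.25 (limma adjusted p = 0.303). Its CD133-positive reading was 124 on array 1 and 66.2 on array 2, beside 283 and 214 in CD133-negative cells, so the arrays parted mostly in the CD133-positive reading. Median centring over all probes called Car11 lower (adjusted p = 0.0188), at a log2 ratio of -0.17 relative to the median of all genes there. Car15, a membrane-anchored form, was at 0.01 ± 0.14 (limma adjusted p = 0.964). Car5a, Car6 and Car10, the liver mitochondrial, the salivary secreted and an acatalytic brain form, were not well above background in any channel.

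**Figure D4:**
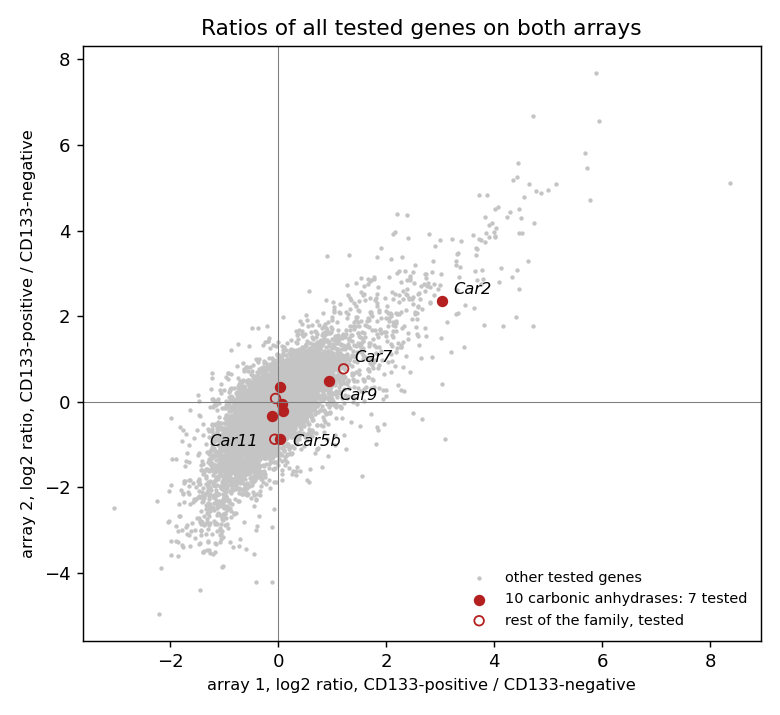
Log2 ratio on array 1 (horizontal) against array 2 (vertical) for all 15245 tested genes in grey, with the 7 tested carbonic anhydrases as filled red points and Car7, Car11 and Car15 as open red points. Car2 stands apart at 3.03 and 2.35, Car7 and Car9 lie above 0 on both axes, and Car5b and Car11 lie near 0 on array 1 and at -0.87 and -0.88 on array 2.

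Bicarbonate and chloride transporters carry the product of the reaction across membranes. Of 25 listed genes 15 were tested, and none passed over all genes in limma, where 1.69% of all genes were called. At an unadjusted limma p under 0.05, 2 were higher and 0 lower (11.9% and 16% of all genes). Other settings called from 0 to 2 higher and 0 lower, except median centring over all probes, which called 2 higher and 8 lower where it called 3.16% of all genes higher and 63% lower. Their median log2 ratio was -0.09, with 2 above 0 and 6 below 0 on both arrays (32.6% and 39.7% of all genes). Slc26a2, a sulfate transporter, had the highest ratio (1.44 and 2.76, mean 2.10 ± 0.36, limma adjusted p = 0.0812), and passed with median centring, an intensity trend or 4 channels (adjusted p = 0.0350, 0.0448 and 0.0424). Slc26a9, a chloride transporter of gastric surface cells, gave no reading well above background in the CD133-negative fraction, so its ratio rests on a dim reading. The log2 ratios were 1.20 and 0.82, with a mean of 1.01 (limma adjusted p = 0.0774). It passed with an offset of 16, median centring, an intensity trend, the processed signals or the value table (adjusted p from 0.00893 to 0.0296), at 3.88 from the processed signals and 4.04 from the value table. The secreted chloride-channel regulator Clca1 had the lowest ratio, but it came from array 2 alone (-0.12 and -4.20, mean -2.16 ± 1.05, limma adjusted p = 0.273). The sodium bicarbonate cotransporter Slc4a4 was at -0.34 ± 0.18 (limma adjusted p = 0.315). Cftr, Slc26a3 and Slc26a7 were among the 10 genes not tested.

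Proton and lactate transport genes had a median log2 ratio of 0.61 over 12 tested of 21 listed, with 0.58 on array 1 and 0.60 on array 2. On both arrays, 8 were above 0 and 4 below 0 (32.6% and 39.7% of all genes). At an unadjusted limma p under 0.05, 6 were higher and 2 lower (11.9% and 16% of all genes). Emb, which encodes embigin, a partner protein of monocarboxylate transporters, rose with 4.42 on array 1 and 5.25 on array 2 (mean 4.84 ± 0.25, limma adjusted p = 0.0162). No other gene of the list was called, and 1.41% of all genes were called higher and 0.276% lower. The 4 channels as separate samples called 3 genes of the list higher, Slc9a8 among them (limma adjusted p = 0.0470). That fit called 530 of all 15245 genes higher. An intensity trend called 1 higher and 1 lower (494 and 334 of all genes). Median centring over all probes called 2 higher and 3 lower (3.16% and 63% of all genes). The call on Emb was lost with its dimmer probe (3.39, adjusted p = 0.0544), without the filter on dim probes (adjusted p = 0.0939) and without moderation (adjusted p = 0.501). The lactate transporter Slc16a1 was at 1.10 ± 0.21 (limma adjusted p = 0.0854) and the proton exchanger Slc9a8 at 0.91 ± 0.14 (limma adjusted p = 0.0706). With their dimmer tested probes these were 0.63 and 0.085 (adjusted p = 0.133 and 0.732). At the low end, the lactate exporter Slc16a3 was at -0.39 on array 1 and -2.89 on array 2 (mean -1.64 ± 0.65, limma adjusted p = 0.206), and the scaffold gene Slc9a3r2 at -1.05 ± 0.21 (limma adjusted p = 0.0884). The gastric proton pump genes Atp4a and Atp4b were not tested.

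Genes of the hypoxia response beside Car9 and Car12 were all tested, 24 of 24. Besides hypoxia-inducible genes, the list holds genes of the hypoxia-inducible factor and its regulators (Hif1a, Epas1, Arnt, Vhl and Hif1an). None passed over all genes in limma, with 6 higher and 1 lower at an unadjusted p under 0.05 (11.9% and 16% of all genes). Vhl and Epas1 were among the 6, and Epas1 had no reading well above background in CD133-negative cells. Other settings called from 0 to 2 higher and 0 lower, except median centring over all probes, which called 1 higher and 11 lower (3.16% and 63% of all genes). Their median log2 ratio was 0.19, made of 0.61 on array 1 and -0.11 on array 2, so the arrays lay on either side of 0. Of these genes, 10 were above 0 and 2 below 0 on both arrays (32.6% and 39.7% of all genes). At least 2-fold higher on both arrays were 3, and 0 were 2-fold lower on both (2.5% and 2.11% of all genes). Ankrd37 (3.20 and 1.17, mean 2.18 ± 0.53, limma adjusted p = 0.110) and the collagen prolyl hydroxylase P4ha2 (1.86 and 1.28, mean 1.57 ± 0.20, limma adjusted p = 0.0633) were highest. P4ha2 passed with an offset of 16, an intensity trend or 4 channels (adjusted p = 0.0446, 0.0307 and 0.0289). Hk2 was close on both arrays (1.23 and 1.22, mean 1.23 ± 0.14, limma adjusted p = 0.0528). It passed with an offset of 16, no background correction, scaling between arrays, the filter for both channels, an intensity trend or 4 channels (limma adjusted p from 0.0199 to 0.0456). The glycolytic regulator Pfkfb3 (-0.46 ± 0.16, limma adjusted p = 0.170) and the growth factor Vegfa (-0.28 ± 0.15, limma adjusted p = 0.307) were lowest of those with 1 sign on both arrays, and were -0.18 and -0.032 with their dimmer tested probes. Car9 and the median of this list were thus higher on array 1 than on array 2, which was not particular to them. Car2, Car7 and the medians of the tested carbonic anhydrases (0.07 and -0.04) and bicarbonate genes (0.064 and -0.20) were too. Car13 (0.03 and 0.34) and the median of the proton and lactate genes (0.58 and 0.60) were not. Whether Car9 and the hypoxia list are related was not tested.

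**Figure D5:**
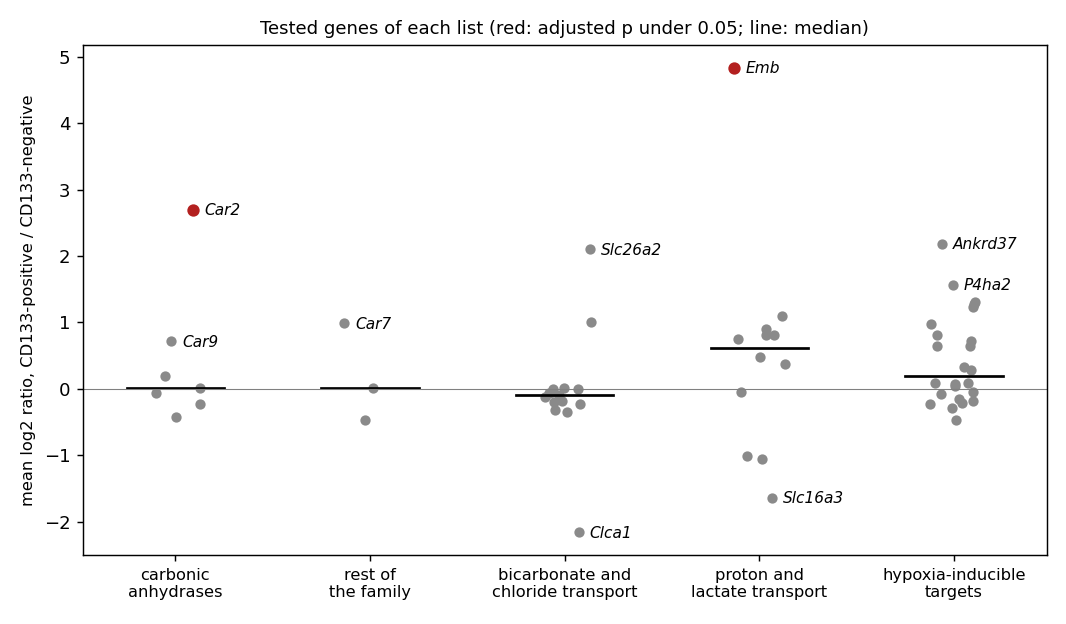
Mean log2 ratio of every tested gene in 5 lists, with called genes (limma adjusted p under 0.05) in red and the median of each list as a line. Car2 and Emb are the 2 called genes, and the medians run from -0.09 for bicarbonate and chloride transport to 0.61 for proton and lactate transport. The hypoxia list also holds genes of the hypoxia-inducible factor and its regulators.

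Prom1, the sorted marker, was at least 12.0-fold higher in CD133-positive cells (limma adjusted p = 0.00934). Such a bound sets the bright channel against the dimmest reading called well above background, or the gene's own where brighter, with channels scaled between arrays, and is open to dye bias. Prom1 had both CD133-negative readings too dim to pass as signal, which checks the labels and is no finding. Of the gastric epithelial markers 11 of 13 were tested. Gkn2 (5.60 ± 0.15) and Tff1 (4.40 ± 0.15), which mark mucus-secreting surface cells, and Muc1 (1.78 ± 0.15) were called higher (limma adjusted p of at most 0.0322). These were 3 of the 11, where 1.41% of all genes were called higher. All of these calls were lost without moderation (adjusted p of at least 0.482), that of Muc1 without the filter on dim probes (adjusted p = 0.0939) and that of Tff1 with 4 channels (adjusted p = 0.0616). The epithelial keratins Krt8, Krt18 and Krt19 were well above background in both fractions, at log2 ratios from -0.79 to -0.54. They were the 3 genes of this list that were lower at an unadjusted limma p under 0.05, and 4 were higher. Of all genes, 16% were lower and 11.9% higher at that threshold. Parietal cells, erythroid cells and muscle or fat also hold carbonic anhydrases. No marker of theirs passed in limma (0 of 3, 0 of 4 and 0 of 2 tested), where 1.69% of all genes were called. At an unadjusted limma p under 0.05, 0 of them were higher, and Vegfb, Kcne2 and Fabp4 were lower (11.9% and 16% of all genes). Counts of so few genes cannot tell whether such cells were present. Of the 4 tested erythroid markers, Epor (1.53 and 0.26, limma adjusted p = 0.202) and Hba-a1 (0.30 and 0.18, limma adjusted p = 0.346) were above 0 on both arrays. Slc4a1 was below 0 on both (-0.086 and -0.087). The parietal markers Atp4a, Cblif, Aqp4 and Slc26a7 and the erythroid marker Gata1 were not well above background on any array. The other 4 parietal markers had some reading well above background, though Atp4b could not be tested. Kcne2 was well above background in both dyes on both arrays, at -0.97 and -2.22 (mean -1.60 ± 0.34, limma adjusted p = 0.0966). Summed net brightness of the 8 erythroid markers was 460 to 735 in Cy3 and 756 to 977 in Cy5, and Epor made up 76.6% to 91.7% of it. That of the 8 parietal markers was 2700 to 3669 and 13486 to 14979, but Vegfb, a broadly expressed gene, made up 95.4% to 97.8%, and the other 7 summed to 60.2 to 93.7 in Cy3 and 405 to 689 in Cy5. Of the endothelial markers, Cdh5 was called higher (at least 5.81-fold, limma adjusted p = 0.0422). It gave no reading well above background in the CD133-negative fraction and passed the filter through Cy3 alone. Kdr, Pecam1 and Tek were not well above background in any channel. The call on Cdh5 was lost with its dimmer tested probe (log2 ratio 1.23, adjusted p = 0.0916), without the filter on dim probes (adjusted p = 0.111) and without moderation (adjusted p = 0.522). In sorted bulk RNA, a change in the share of cells that express a gene and a change in RNA per cell cannot be told apart.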

How the data were processed

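RNA of CD133-positive (Cy3) and CD133-negative (Cy5) GIF-5 cells was hybridised together on each of 2 Agilent arrays with 1 scan time. Per the file headers, the authors deposited the intensity of each spot and its local background without normalisation, as Agilent Feature Extraction 9.5.3.1 read it. They also deposited that program's processed intensity, from which background was subtracted, spatial trends were removed and the dyes were balanced, per the file headers. The log10 ratio deposited per spot is Cy5 over Cy3. The value table equals it in each of 45018 spots on both arrays and has a median of 0 (27.21% and 27.31% of its values are 0).

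Intensities were corrected by normexp (offset 50) and normalised within arrays by loess, control spots at weight 0. Of 41174 non-control probes, 22951 were named by accession and 9768 by symbol or synonym in a RefSeq table, and 8455 kept the file's name. Probes with an outlier flag were left out, spots of a probe were averaged, and the brightest tested probe stood for a gene (15245 genes). The mean log2 ratio of each gene was fitted in limma 3.58.1 (R 4.3.3, empirical Bayes). Tests were two-sided, p-values were adjusted by Benjamini-Hochberg across all 15245 genes, and 0.05 was the threshold (1 residual and 2.88 prior degrees of freedom, which also set the 95% intervals). In simulated data on the same genes, the share of false calls was somewhat above the nominal rate with variances drawn from limma's fitted prior, and further above it with variances taken from each gene's own spread. Adjusted p-values near the threshold, that of Car2 among them, may therefore be too small.

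The members and lists were chosen with earlier results of these data known. Named genes were the family and Prom1, called genes of each list, and of the rest up to 2 highest and 2 lowest with 1 sign on both arrays. Marker genes, untested list genes, Hk2 and the genes of the hypoxia-inducible factor and its regulators are also named. The values of 1 listed marker are not reported here.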

Additional observations from a re-analysis of the deposited data

How the results depend on the processing

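The direction of Car2 held under all 14 alternatives and its call under 10 of the 12 with a test. It had a log2 ratio of 1.75 with median centring over all non-control probes (adjusted p = 0.00745), 2.49 above the median of all tested genes there. Its call was lost at 2.69 without the filter on dim probes (adjusted p = 0.108, 27617 genes tested) and at 2.69 without moderation (adjusted p = 0.515). The number of carbonic anhydrase genes called was 0 in those fits and 2 with median centring, where Car13 was called at -0.74 (adjusted p = 0.015). That centring moved the median of all tested genes to -0.74 and the processed signals moved it to -0.18, and Car13 was 0.00012 above it with median centring. Car1 changed sign with median centring (-0.17, 0.58 above the median of all genes) and with the processed signals (-0.11). Leaving out 1 array gave ranges of 2.35 to 3.03 for Car2, 0.50 to 0.94 for Car9, 0.03 to 0.34 for Car13, -0.043 to 0.074 for Car1, -0.21 to 0.080 for Car14, -0.34 to -0.11 for Car12, -0.87 to 0.023 for Car5b and -0.051 to 0.078 for Car15, so the sign of Car1, Car14, Car5b and Car15 depends on the array. Car14 was not tested with the filter for both channels.

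Of all tested genes, 257 were called, 215 higher and 42 lower. The count was 573 with an offset of 16 (409 higher, 164 lower), 508 with scaling between arrays (317 and 191), 532 with the processed signals (377 and 155), 462 with the value table (379 and 83) and 10093 with median centring (482 and 9611). It was 374 without background correction (271 and 103), 828 with an intensity trend in the variance (494 and 334), 155 with the dimmest tested probe, 32 without the filter and 0 without moderation. With the 4 channels as separate samples and the array as a replicate block (estimated correlation -0.013) it was 1030 (530 and 500), with Car2 at an adjusted p of 0.0183. The cause of each shift was not tested. A block for slide or scan was not run, since both arrays share 1 scan time. No other paired analysis was possible because both fractions of a replicate share 1 array, and the ratio within it is already paired.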
